A study of Mus musculus with 6 samples.

Results

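A set of 10 genes known for axon growth and for the response of neurons to injury was followed across the 6 libraries of this series. They are Gap43, Basp1, Crmp1, Dpysl2, Dpysl3, Flrt3, Sprr1a, Gadd45a, Sox11 and Ecel1, chosen by name and represented by every probe set whose single gene symbol was one of them. All 10 were on the array, with 19 of 45101 probe sets, and they are 10 of 18193 genes that could be tested. The libraries were made from cells sorted from the myenteric plexus of the colon, a mesh of ganglia embedded in the muscular coat of the bowel, in mice of the strain Mapttm1(EGFP)Klt/J. In these mice EGFP is made from the Mapt locus, the gene of the microtubule protein tau. There were 3 libraries labelled Mapt-EGFP+ colonic neurons and 3 labelled Mapt-EGFP- myenteric cells, each pooled from 2, 4 or 6 mice, with no statement of which had which number. Age, sex and zygosity were not among the labels. All mice of both groups had undergone laparotomy with an injection of 3 to 5 µL of labelled cholera toxin subunit B at 25 mg/mL into the celiac ganglion and were killed 3 to 4 days later. The 2 groups therefore differ in the sort gate and share the operation, and operated mice are not set against unoperated ones here.

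Growing axons end in a growth cone, whose membrane and cytoskeleton are rebuilt continuously. Gap43 and Basp1 encode abundant growth cone proteins that lie under the membrane and act on actin, and the collapsin response mediator proteins encoded by Crmp1, Dpysl2 and Dpysl3 bind tubulin and carry semaphorin signals to microtubules. After an axon is cut, peripheral neurons switch on a program in which Sprr1a, Gadd45a, Sox11, Ecel1 and Flrt3 are commonly named. The enteric nervous system holds neurons and glia side by side, and Gap43 is also known from glia.

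The values are deposited log2 expression values, 1 per probe set and library, given below for replicates 1, 2 and 3 of the libraries labelled EGFP-positive and then of those labelled EGFP-negative. The background was read from 3 probe sets for TrpnX, a bacterial control transcript, which lay between 1.00 and 1.48. This is a low line: 29809 to 33152 probe sets other than controls lay above 1.48 in each library, of 45101 in all. The library medians were 1.91 to 1.99, so a value just above the ceiling does not by itself show expression. Mapt itself read 1.43, 1.32 and 5.55 in the EGFP-positive libraries and 1.44, 1.64 and 1.38 in the EGFP-negative ones. In Mapt, EGFP-positive replicates 1 and 2 thus lay within the TrpnX background, as did EGFP-negative replicates 1 and 3. Mapt RNA is not a measure of EGFP, and zygosity was not given, so these values do not test the sort. The terms "EGFP-positive" and "EGFP-negative" name the labels throughout. The mean of 14 measured neuron markers was 2.78, 2.83 and 6.04 against 2.96, 3.03 and 3.36, and all 14 had their highest value in EGFP-positive replicate 3. Their summed log2 level was 38.9 to 84.5 in the EGFP-positive and 41.4 to 47.0 in the EGFP-negative libraries. Of these markers only Elavl3 and Rbfox3 were at or below the TrpnX ceiling in any library. EGFP-negative replicate 1 had the lowest upper quartile of all values, 4.08 against 4.61 to 4.86 in the others. The number of arrays limits the precision. In sorted bulk samples, a smaller share of a cell type and less RNA per cell cannot be told apart.

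None of the 10 genes passed the comparison of the 2 groups (limma, Benjamini-Hochberg adjusted p = 1.00 for each, threshold 0.05). The background of this comparison was 0% of 18193 genes called, with 893 at an unadjusted p under 0.05 (4.91%). Of the members, 0 had an unadjusted p under 0.05. Of the 34945 probe sets tested one by one, 0 were called and 5.57% had an unadjusted p under 0.05, with 0 of the 19 member probe sets in either count. The groups overlapped in all 19 member probe sets, while 9.11% of all genes had groups that did not overlap. The median log2 difference of the 10 members, EGFP-positive minus EGFP-negative, was 0.20, beside -0.02 over all genes, and 8 of the 10 differences were above 0. The members' median was -0.01 without EGFP-positive replicate 3, and also -0.01 without EGFP-negative replicate 1. The differences that follow are on this log2 scale, with the moderated SE and 95% interval of limma from a fit that does not pair the libraries.

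**Figure D1:**
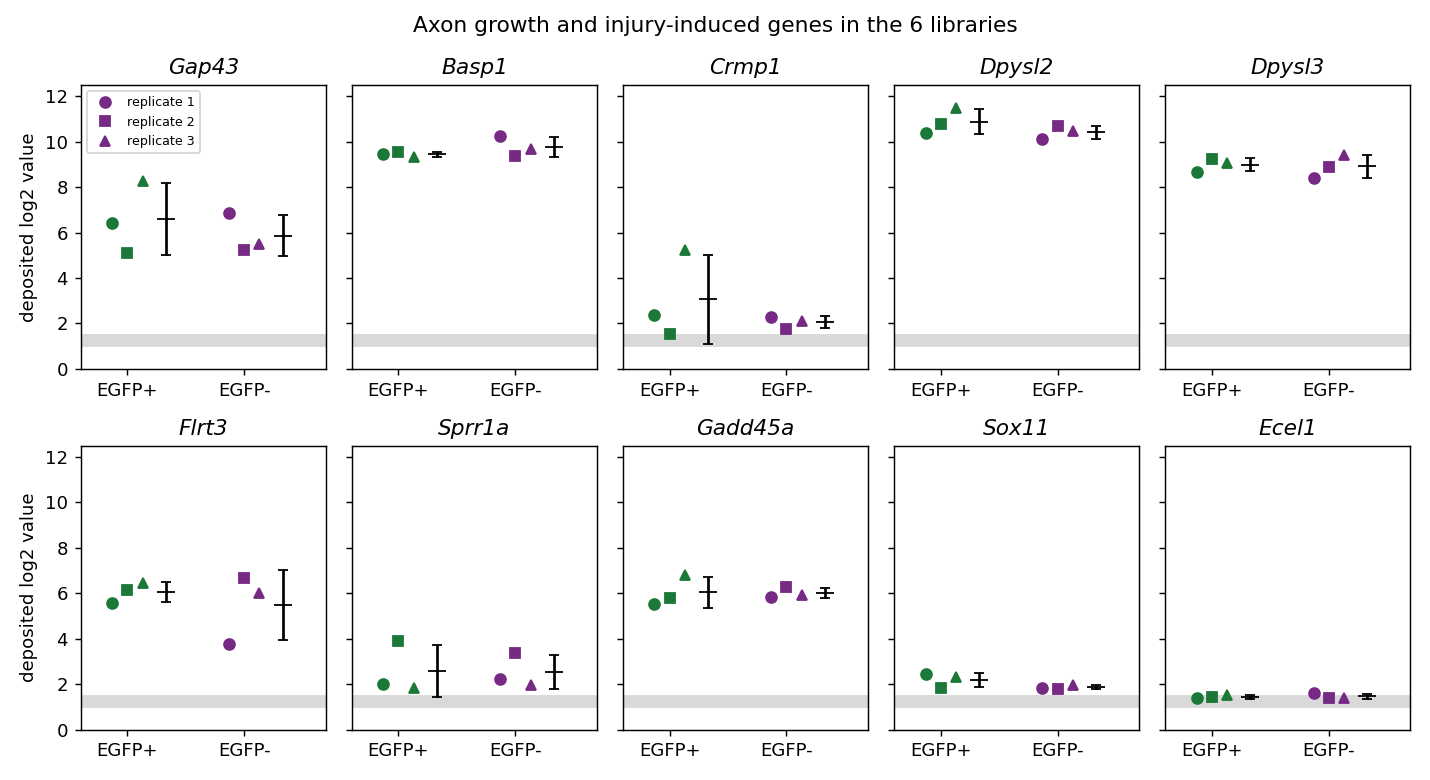
Deposited log2 value (vertical axis) of the 10 genes, 1 panel per gene, in the 3 EGFP-positive (green) and 3 EGFP-negative (purple) libraries; symbols mark the replicate, bars the mean and SD (n = 3), and the grey band the TrpnX background of 1.00 to 1.48. Gap43 and Crmp1 stand highest in EGFP-positive replicate 3, Sprr1a in replicate 2 of both groups, Flrt3 is lowest in EGFP-negative replicate 1, and Ecel1 lies in the band or just above it.

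Gap43, the growth cone protein most widely used to mark growing axons, read 6.44, 5.08 and 8.26 in the EGFP-positive libraries and 6.88, 5.22 and 5.51 in the EGFP-negative ones. It was well above background in all 6 and highest in EGFP-positive replicate 3, while the other 2 EGFP-positive libraries lay within the EGFP-negative range or just under it. The means were 6.59 ± 1.59 (SD, n = 3) and 5.87 ± 0.89 (SD, n = 3). The difference was 0.72 (SE 0.90, interval -1.51 to 2.95), smaller than the spread among the EGFP-positive libraries. Within the same-numbered pairs it was -0.44, -0.14 and 2.75, and leaving out EGFP-positive replicate 3 turned it to -0.11. The sign of the mean difference was thus set by 1 library.

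Basp1, a calmodulin-binding growth cone protein of similar behaviour to Gap43, did not show that library's excess. It read 9.47, 9.53 and 9.33 against 10.27, 9.38 and 9.68. Its lowest value was in EGFP-positive replicate 3, where Gap43 was highest, and its highest was in EGFP-negative replicate 1. The means were 9.44 ± 0.10 (SD, n = 3) and 9.78 ± 0.45 (SD, n = 3), a difference of -0.34 (SE 0.25, interval -0.95 to 0.28). Without EGFP-negative replicate 1 the difference was -0.09.

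The 3 collapsin response mediator genes had different orders over the libraries. Crmp1, a largely neuronal member of this family, read 2.39, 1.54 and 5.25 in the EGFP-positive libraries and 2.30, 1.77 and 2.10 in the EGFP-negative ones. Only EGFP-positive replicate 3 stood far above the TrpnX ceiling of 1.48, and the other 5 libraries ran from 1.54 to 2.39. The difference of the means was 1.00 (SE 0.96, interval -1.40 to 3.40). The pairs gave 0.09, -0.23 and 3.15, and without EGFP-positive replicate 3 the difference was -0.09.

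Dpysl2, which encodes the tubulin-binding protein CRMP2, was far above background in every library with its main probe set. It read 10.39, 10.78 and 11.49 against 10.11, 10.67 and 10.48. The EGFP-positive library was higher in all 3 pairs, by 0.28, 0.11 and 1.01, but the groups overlapped. The means were 10.89 ± 0.56 (SD, n = 3) and 10.42 ± 0.29 (SD, n = 3), a difference of 0.46 (SE 0.32, interval -0.34 to 1.27). Without EGFP-positive replicate 3 it was 0.16. The second Dpysl2 probe set, 1450502_at, stayed between 1.35 and 1.60 in all 6 libraries, too near the background to compare the groups.

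Dpysl3, which encodes CRMP4, was measured by 3 probe sets, all well above background. The one with the highest mean read 8.68, 9.23 and 9.04 against 8.42, 8.90 and 9.41. Its groups covered nearly the same range, with means of 8.99 ± 0.28 (SD, n = 3) and 8.91 ± 0.49 (SD, n = 3) and a difference of 0.07 (SE 0.29, interval -0.65 to 0.80). The probe sets 1415877_at and 1438789_s_at gave larger differences, 0.47 (SE 0.34) and 0.42 (SE 0.27). With 1415877_at the pairs gave 0.99, 0.81 and -0.41, so that the EGFP-positive library of pair 3, the one richest in neuron markers, was the lower one. The same held for the other 2 probe sets, at -0.36 and -0.25 in pair 3. In that pair Crmp1 and Dpysl2 had differences of the opposite sign.

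**Figure D2:**
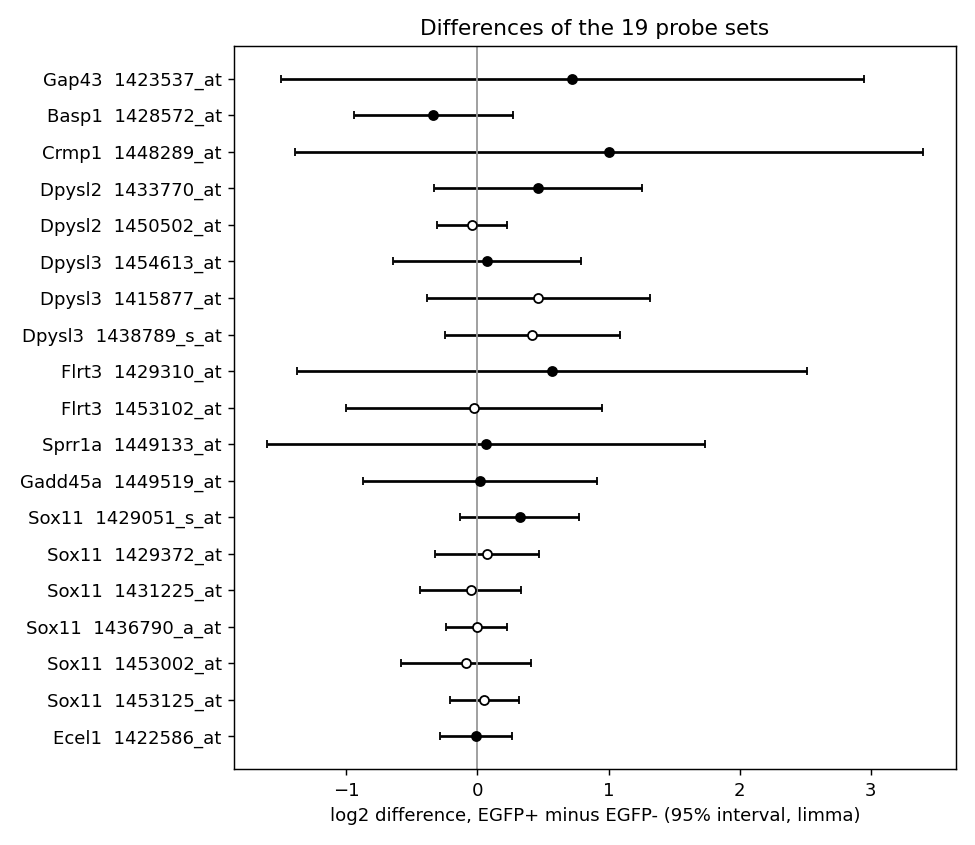
Log2 difference between the group means, EGFP-positive minus EGFP-negative (horizontal axis), with the 95% limma interval for each of the 19 probe sets; filled points mark the probe set with the highest mean of each gene. All 19 intervals include 0; the widest belong to Crmp1 and Gap43, at -1.40 to 3.40 and -1.51 to 2.95 in the fit over genes.

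Of the 10 members, Gap43, Crmp1, Dpysl2 and Gadd45a (4 of 10) had their highest value in EGFP-positive replicate 3, as did 19.6% of all genes. Beside them, the 8 measured glia markers all peaked in that library, with list means of 6.30, 6.00 and 8.12 against 4.60, 5.79 and 5.36 and summed levels of 48.0 to 64.9 against 36.8 to 46.4. None of the glia markers was at or below the TrpnX ceiling in any library. In the same library the macrophage and epithelium marker means were the lowest of the 6, at 2.04 and 5.61. The smooth muscle mean was high there too, at 10.17, and higher only in EGFP-negative replicate 3, at 10.38. The part of the neuron and glia markers in these 4 genes' values was not tested.

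**Figure D3:**
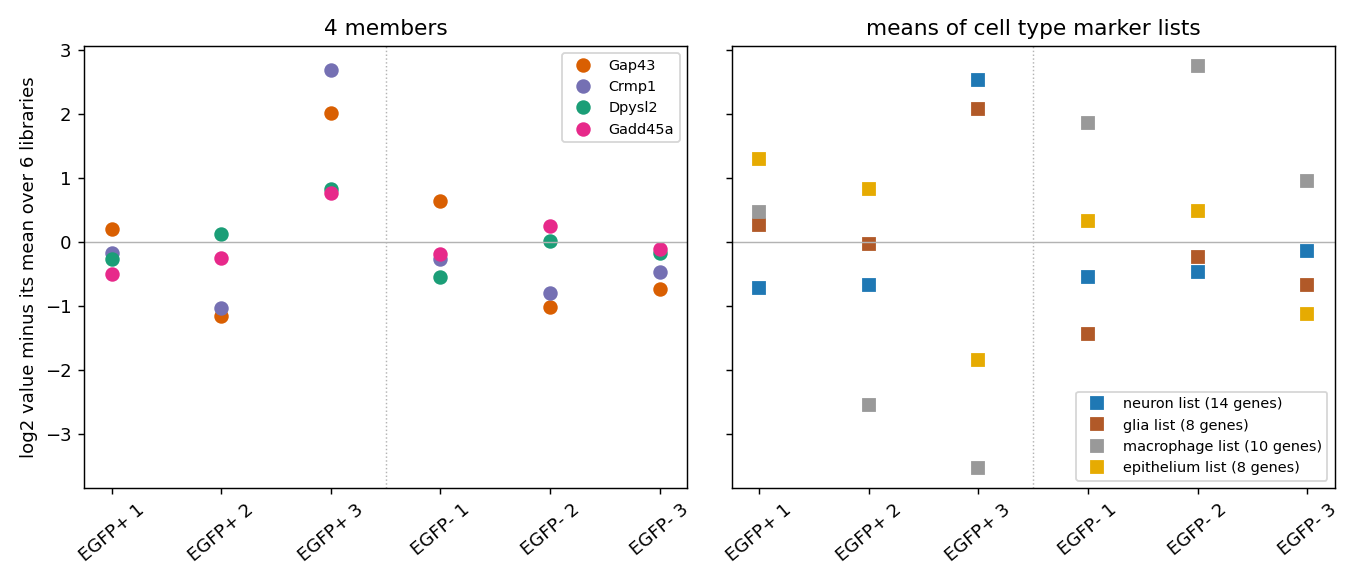
Log2 value minus its mean over the 6 libraries (vertical axis) for 4 members (left) and for the means of 4 marker lists (right), by library; the dotted line divides EGFP-positive from EGFP-negative. Gap43, Crmp1, Dpysl2 and Gadd45a peak in EGFP-positive replicate 3, the library where the neuron and glia means are highest (6.04 and 8.12) and the macrophage and epithelium means lowest (2.04 and 5.61).

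The genes with profiles nearest to those of Gap43 and Crmp1 were sought over all 18193 genes by the root mean square difference of values centred on each gene's mean over the 6 libraries. For Crmp1 these were Gria2, an AMPA-type glutamate receptor subunit, at 0.19, and Crtac1 and Pcsk1n, an inhibitor of prohormone processing, both at 0.20. Gria2 read 1.55, 1.26 and 4.62 against 1.82, 1.48 and 1.62, again with 1 library above the rest. For Gap43 the nearest were Syt17, Olfml2a and Sult4a1, a brain-enriched sulfotransferase, at 0.40, 0.42 and 0.42. No gene came as near to Gap43 as Gria2 did to Crmp1. Gap43 was higher in replicate 1 than in replicate 2 of both groups, at 6.44 and 6.88 against 5.08 and 5.22, and so was Crmp1, at 2.39 and 2.30 against 1.54 and 1.77.

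Flrt3, a leucine-rich repeat adhesion protein that binds Unc5 receptors and latrophilins and is induced in injured sensory neurons, read 5.59, 6.13 and 6.44 against 3.76, 6.70 and 6.00. EGFP-negative replicate 1 was the low library, and the other 5 lay between 5.59 and 6.70. The difference was 0.57 (SE 0.78, interval -1.39 to 2.52), and without that library it was -0.29. With the second Flrt3 probe set, 1453102_at, the values were 4.80, 5.41 and 5.63 against 4.68, 6.00 and 5.24, and the difference was -0.03 (SE 0.39). Here EGFP-negative replicate 1 was lowest too, but only 0.12 below EGFP-positive replicate 1, beside 1.83 with the first probe set. The nearest profiles were those of Adamts5, a protease that cuts aggrecan, at 0.18, and Tex2 and Slc30a9, a zinc transporter, at 0.24 and 0.25. All 3 had their lowest value in EGFP-negative replicate 1, at 4.20, 3.53 and 4.54, the library with the lowest upper quartile. The part of that library's distribution in these values was not tested.

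Sprr1a, a small proline-rich protein of the cornified envelope of epithelia that injured neurons also make, varied more between replicate numbers than between groups. It read 2.03, 3.90 and 1.84 against 2.22, 3.38 and 1.97. Both libraries numbered 2 were high, and the other 4 lay between 1.84 and 2.22, above the TrpnX ceiling by less than 1 on the log2 scale. The means were 2.59 ± 1.14 (SD, n = 3) and 2.52 ± 0.75 (SD, n = 3), a difference of 0.06 (SE 0.67, interval -1.61 to 1.74). Within pairs it was -0.20, 0.52 and -0.13. Of all genes, 7.41% had their 2 highest values in the libraries numbered 2. The nearest profile was that of D830026I12Rik, at 0.08, followed by Acer2, an alkaline ceramidase, and Tll1, a tolloid-like protease, at 0.19 and 0.21.

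Markers of epithelium and mesothelium did not have both libraries numbered 2 highest. The epithelium means were 8.75, 8.28 and 5.61 against 7.78, 7.94 and 6.33, and those of mesothelium were 9.63, 9.07 and 7.27 against 9.32, 8.67 and 7.56. Hspa1a, an inducible heat shock protein, read 8.61, 9.51 and 8.35 against 8.83, 10.09 and 8.71, and was highest in both libraries numbered 2. Il6, the cytokine, read 4.49, 6.22 and 4.28 against 4.54, 6.58 and 5.88, with the same 2 libraries highest. Hspa1b, Klf6, Lif and Myc, named after their values were seen, also had these 2 libraries highest. Of the lists these genes come from, 4 of 12 early stress genes and 6 of 30 other injury genes had their highest value in a library numbered 2. This is a looser measure than having both such libraries highest. The highest value lay in EGFP-positive replicate 2 for 10.78% of all genes and in EGFP-negative replicate 2 for 18.98%. Of the endothelium markers 5 of 6 had their highest value in a library numbered 2, with list means of 4.73, 6.13 and 3.83 against 5.20, 5.57 and 5.59. The endothelium mean did not have both libraries numbered 2 highest either, since EGFP-negative replicate 3 (5.59) lay above EGFP-negative replicate 2 (5.57). The part of these genes and markers in the Sprr1a values was not tested. Sprr1b, a close relative of Sprr1a, stayed between 1.18 and 1.68 in all 6 libraries.

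**Figure D4:**
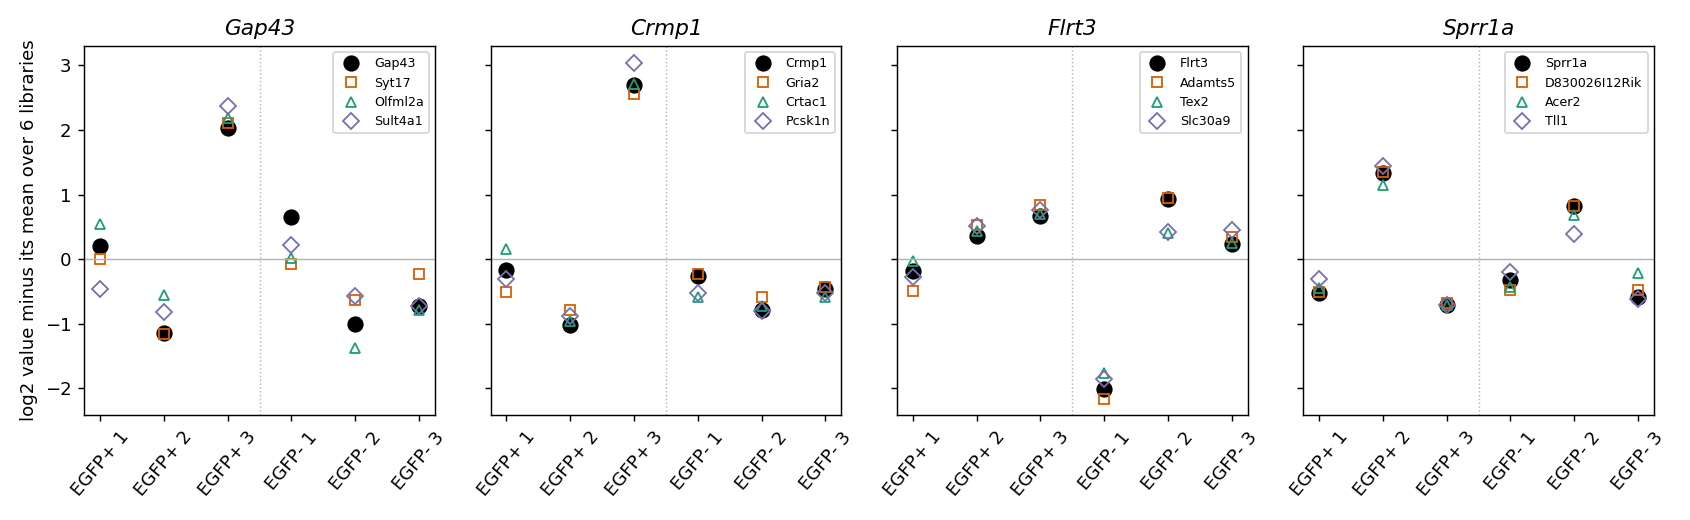
Log2 value minus its mean over the 6 libraries (vertical axis) for Gap43, Crmp1, Flrt3 and Sprr1a (black) and the 3 genes with the nearest profile to each (open symbols), by library. Crmp1 and its neighbours stand high in EGFP-positive replicate 3, those of Flrt3 lie lowest in EGFP-negative replicate 1, and those of Sprr1a stand high in replicate 2 of both groups.

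The promoter windows of 3 of these genes are shown because their patterns over the libraries differed: Sprr1a high in 1 replicate number, Crmp1 high in 1 library, and Basp1 high in all 6. Each runs 5′ to 3′ over the 250 bases before the transcript start, from RefSeq on build GRCm38.p6. Capitals mark matches on either strand to 3 motifs, CANNTG (the E-box), TGANTCA (the AP-1 motif) and TATAAA, and no match overlaps another. The windows are chr3:92485882-92486131 (minus strand) for Sprr1a, chr5:37241808-37242057 (plus strand) for the first of 2 Crmp1 starts, and chr15:25413765-25414014 (minus strand) for Basp1.
Sprr1a: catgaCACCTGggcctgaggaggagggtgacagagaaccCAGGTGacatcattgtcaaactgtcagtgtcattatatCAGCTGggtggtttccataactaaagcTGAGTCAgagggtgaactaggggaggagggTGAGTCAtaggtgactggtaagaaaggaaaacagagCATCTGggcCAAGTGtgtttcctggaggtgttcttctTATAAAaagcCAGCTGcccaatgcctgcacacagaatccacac
Crmp1: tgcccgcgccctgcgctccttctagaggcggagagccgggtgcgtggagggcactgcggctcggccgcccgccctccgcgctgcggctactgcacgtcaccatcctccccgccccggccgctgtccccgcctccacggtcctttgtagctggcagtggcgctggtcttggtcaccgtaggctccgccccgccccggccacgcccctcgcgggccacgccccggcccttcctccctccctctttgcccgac
Basp1: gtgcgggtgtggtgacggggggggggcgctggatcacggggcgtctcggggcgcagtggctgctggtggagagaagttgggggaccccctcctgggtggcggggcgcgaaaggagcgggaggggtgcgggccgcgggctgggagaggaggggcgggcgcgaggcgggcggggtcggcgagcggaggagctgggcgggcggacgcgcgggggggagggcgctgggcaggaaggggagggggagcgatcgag
The Sprr1a window held 2 matches to TGANTCA, 6 to CANNTG and 1 to TATAAA. Over all 32851 windows of the same length, 6.75% held at least 1 TGANTCA, 66.2% a CANNTG and 12.4% a TATAAA. The Basp1 window and the first Crmp1 window held none of the 3 motifs. They were rich in G and C, at 78.8% and 75.6% with 30 CpG each. The window of the second Crmp1 start, chr5:37245514-37245763 (plus strand), held 1 CANNTG, 59.6% G and C and 16 CpG, while the Sprr1a window had 49.6% and 0 CpG and the median window 52.4% and 6. The windows of the other members held 3 CANNTG for Ecel1, 2 each for Flrt3 and Sox11 and 1 for Gadd45a, and neither other motif. A relation between motifs and the patterns over the libraries was not tested. A match is a description of letters and does not show that a factor binds.

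Of the other injury-induced members, Gadd45a, a stress-response gene that acts in DNA repair and growth arrest, was the 1 well above background. It read 5.53, 5.78 and 6.80 against 5.85, 6.29 and 5.92. EGFP-positive replicate 3 was highest and EGFP-positive replicates 1 and 2 were the lowest of the 6. The means were 6.04 ± 0.67 (SD, n = 3) and 6.02 ± 0.24 (SD, n = 3), a difference of 0.02 (SE 0.36, interval -0.88 to 0.92). In pairs it was -0.32, -0.51 and 0.88.

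Sox11, a transcription factor of developing and regenerating neurons, had 6 probe sets near the background. The highest, 1429051_s_at, read 2.43, 1.84 and 2.31 against 1.84, 1.79 and 1.98. The EGFP-positive library was higher in all 3 pairs, by 0.59, 0.05 and 0.33, and the difference was 0.32 (SE 0.19, interval -0.14 to 0.79). The other 5 probe sets ran from 1.12 to 1.79 over all libraries, and 1453125_at did not exceed the TrpnX ceiling in any. Without the probe sets named _x_at or _s_at, Sox11 was represented by 1453002_at, with a difference of -0.09.

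Ecel1, a membrane endopeptidase induced in damaged neurons, read 1.39, 1.42 and 1.54 against 1.60, 1.40 and 1.40. Its values lay between 1.39 and 1.60 and exceeded the TrpnX ceiling in 2 of the 6 libraries, so no difference can be read. Among members it was the 1 of 10 whose value was not above the ceiling in all libraries, a line that most probe sets of the array passed.

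Close relatives of the members were measured in 13 genes, none of which passed (0 higher and 0 lower). Their median difference was 0.05, and 2 of 13 had groups that did not overlap, both higher in EGFP-positive libraries, as did 3.07% of all genes. These were Flrt1 and Dpysl4. Flrt1, the first of the Flrt adhesion genes, read 5.74, 4.27 and 6.03 against 3.65, 3.12 and 2.48, a difference of 2.26 (SE 0.55, limma adjusted p = 0.951). Flrt2 read 6.86, 7.49 and 5.46 against 6.42, 7.19 and 6.86, so the 3 Flrt genes had different orders over the libraries. Dpysl4, which encodes CRMP3, read 2.81, 3.19 and 6.26 against 2.53, 2.39 and 2.00, with EGFP-positive replicate 3 highest as for Crmp1. Dpysl5 stayed between 1.83 and 2.53, and Dpys, the dihydropyrimidinase for which the family is named, between 1.14 and 1.61.

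Sox4, the close relative of Sox11, was far above background in all libraries, at 8.72, 8.90 and 9.14 against 8.79, 8.50 and 8.90, a difference of 0.19 (SE 0.17). Sox12 ran from 1.62 to 2.34. Gadd45b read 7.61, 7.29 and 6.47 against 8.56, 7.21 and 7.26, and Gadd45g 6.73, 7.21 and 7.12 against 6.90, 6.69 and 7.48. Gadd45b was thus lowest in EGFP-positive replicate 3, the library in which Gadd45a was highest. Of the peptidases related to Ecel1, Ece1 read 7.77 to 8.56, Ece2 2.80 to 3.77 and Mme 1.34 to 1.94.

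A list of 30 other genes of the injury response had 0 members called in either direction and a median difference of 0.19. Groups did not overlap in 4 of the 30, Chl1, Nrn1, L1cam and Creb1, all higher in EGFP-positive libraries (3.07% of all genes), of which the last 2 are named after their values were seen. In EGFP-positive replicate 3, 14 of the 30 had their highest value, as did 19.6% of all genes. The 2 largest differences were those of Chl1, a neural adhesion molecule, and Nrn1, a neurite-promoting protein bound to the membrane. Chl1 read 8.12, 8.41 and 10.56 against 3.87, 7.77 and 7.67, a difference of 2.59 (SE 1.27, limma adjusted p = 1.00). Nrn1 read 6.67, 6.43 and 8.11 against 4.34, 5.42 and 3.69, a difference of 2.59 (SE 0.62, limma adjusted p = 0.951). In both genes every EGFP-positive library was above every EGFP-negative one, which Gap43 and Crmp1 did not show. The lowest differences were those of Arg1 and Il6. Arg1, an arginase that macrophages also make, read 6.22, 1.54 and 1.40 against 7.51, 8.46 and 5.50, and the macrophage marker mean was 6.03, 3.02 and 2.04 against 7.42, 8.31 and 6.52. The part of macrophages in the Arg1 values was not tested.

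Among 24 measured receptors, kinases and partners of the member proteins, 0 were called in either direction, and the median difference was 0.15. Groups did not overlap in 3 of them, Adgrl3, Prkca and Gsk3b, all higher in EGFP-positive libraries (3.07% of all genes), the last named after its values were seen. Adgrl3, a latrophilin that binds Flrt proteins, read 2.04, 2.14 and 4.79 against 1.99, 1.82 and 1.60, a difference of 1.18 (SE 0.77). Prkca, a protein kinase C isoform, the kinase family that phosphorylates Gap43, read 7.66, 7.56 and 9.17 against 6.96, 7.29 and 7.13, a difference of 1.01 (SE 0.46). Both had their highest value in EGFP-positive replicate 3. Prkcb, another isoform, read 4.16, 3.55 and 5.44 against 5.26, 5.54 and 7.08, a difference of -1.58 (SE 0.68). Nrp1, a semaphorin co-receptor, read 6.80, 7.96 and 8.63 against 7.86, 8.65 and 8.72, and was lower in the EGFP-positive library of every pair.

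Early stress genes that cell dissociation can induce were well above background in both groups. The 12 genes averaged 8.95, 8.82 and 8.95 against 9.00, 9.02 and 8.87, with a median difference of -0.06 and 0 called in either direction. Fos, an immediate early gene, read 11.48, 11.40 and 11.95 against 11.45, 11.51 and 11.11, and Fosb had the highest difference, 0.30 (SE 0.32). Zfp36, which destabilises cytokine transcripts, had a difference of -0.50 (SE 0.21) and was lower in every EGFP-positive library than in any EGFP-negative one, the 1 of 12 with such groups, beside 6.04% of all genes.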

How the data were processed

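Total RNA of 6 samples of sorted cells was hybridised to 1-colour Affymetrix Mouse Genome arrays from about 50 ng, per the labels' protocols. The deposited values are log2 expression, which, per the submitters' processing notes, the authors computed with RMA, its version and settings being not given in the sources used here. Upper quartiles ran from 4.08 to 4.86, so the arrays do not share 1 distribution. Values ran from 0.05 to 15.2, from which the log2 scale was taken, and no normalisation was added.

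Of 45101 probe sets, 64 were controls, 34945 had 1 gene symbol in the platform annotation, 932 several and 9160 none. The first kind was used. Where a gene had several, its brightest on average stood for it, giving 18193 genes. A second fit used all 34945 probe sets. The group contrast was fitted by lmFit and eBayes (limma 3.58.1, R 4.3.3; two-sided), with Benjamini-Hochberg adjustment over the whole table and a threshold of 0.05. The code was tested on simulated data. The p-values measure the spread of 3 against 3 pooled samples. Tables were made with pandas 2.3.3 and figures with matplotlib 3.10.9 under Python 3.11.15.

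Replicate numbers 1 to 3 occur in both groups' labels. Deviations from the group means correlated over genes at 0.36, 0.32 and 0.42 for the same numbers, so the numbers were taken to pair the samples. For different numbers the correlations were -0.41 to -0.01. Deviations from a group mean cancel within each gene, so positive values for the same numbers push the others negative. The latter are thus not separate support. The pairing comes from the data and not from a statement in the labels. The fit with the replicate number as a block was an alternative, and the printed SEs and intervals come from the unpaired fit. With the block, Sprr1a had an SE of 0.20 (interval -0.50 to 0.63), beside 0.67 (-1.61 to 1.74) without it. The SE was smaller with the block for every member but Ecel1, at 0.13 beside 0.12. A smaller SE did not always give a narrower interval. For Basp1 the interval was -0.98 to 0.31 with the block, beside -0.95 to 0.28. For Gadd45a it was -0.92 to 0.96, beside -0.88 to 0.92.

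The members and lists were chosen with earlier results of these data known. All members were named, as were all close relatives. Of the other lists, the 2 highest and 2 lowest differences among genes above the TrpnX ceiling in some library were eligible. For members with a range of at least 2, the 3 nearest profiles were named. Some genes of the lists are not reported here. Promoter windows came from the RefSeq table of build GRCm38.p6, which held 7 of the 10 members.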

Additional observations from a re-analysis of the deposited data

How the results depend on the processing

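No member that entered the test was called by limma under any of the 15 alternatives, at gene level or, where it applied, at probe set level, and the lowest adjusted p of a member at gene level over them was 0.746. With the replicate number as a block, 0 members and 0 genes were called, and the paired fit changed no call. Over all genes the count stayed at 0 except without EGFP-positive replicate 1, so that leaving out 1 library gave 0 to 2 genes. The 2 were Fermt3 and Ccr2, both leukocyte genes and lower in the EGFP-positive libraries, named after their values were seen. Basp1 and Dpysl2 kept their sign throughout.

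Leaving out 1 library gave log2 differences of -0.11 to 1.48 for Gap43, -0.094 to 1.76 for Crmp1, -0.59 to 0.49 for Sprr1a, -0.36 to 0.27 for Gadd45a, -0.058 to 0.054 for Ecel1, -0.29 to 1.17 for Flrt3 and -0.17 to 0.32 for Dpysl3. These 7 ranges include both signs. Quantile normalization turned Sprr1a (-0.0042), Gadd45a (-0.043) and Ecel1 (0.0014). Median centring turned Gadd45a (-0.018). Array weights turned Gadd45a (-0.23), Ecel1 (0.016) and Flrt3 (-0.10). Without _x_at and _s_at probe sets Sox11 gave -0.09, since another probe set then represents it. For the other reversals the cause was not tested. Values near the TrpnX background limit Ecel1 and Sox11. They also limit Crmp1 outside EGFP-positive replicate 3, at 1.54 to 2.39, and Sprr1a outside the libraries numbered 2, at 1.84 to 2.22.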
